A study of Mus musculus with 6 samples.

Results

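The GIMAP genes encode small GTPases found mainly in lymphocytes. The 8 genes described here, Gimap1 and Gimap3 to Gimap9, were chosen by name from the 17438 genes of the count table, and all 8 were present. The family was picked because Gimap4 was lower in Cd48 KO cells, so the difference between genotypes is given as a description, and the calls reported for members support nothing beyond it. RNA came from group 2 innate lymphoid cells (ILC2s, lung-resident lymphocytes that make type 2 cytokines) sorted from mouse lung, treated with the alarmin IL-33 and recovered from culture. There were 3 libraries from mice with the designation B6.129S4-Cd48tm1Rsr/EpaulJ (Cd48 KO, n = 3) and 3 from WT mice (n = 3). All 6 samples had the strain label CB57BL/6 and the IL-33 treatment. No age, sex or pooling is given in the labels, and the design text speaks of duplicates although each genotype had 3 samples. Nothing in the labels says that the samples came from separate mice, so the spread between them may be technical.

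GIMAP proteins share a GTP-binding domain related to that of the septins, and several are anchored to membranes of organelles such as lysosomes, the Golgi or mitochondria. They are best known from T and B cells, where loss of individual members leaves mice or rats with too few mature lymphocytes. Their genes lie in a single cluster in mammals, which in mouse holds the near-duplicate pair Gimap3 and Gimap5.

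In the GRCm38 (mm10) annotation the 8 genes occupied 123.6 kb of chromosome 6, whereas Cd48 lies on chromosome 1. In order along the chromosome they were Gimap8, Gimap9, Gimap4, Gimap6, Gimap7, Gimap1, Gimap5 and Gimap3. Gimap6 and Gimap3 are read from the minus strand and the others from the plus strand. Gimap4 (chr6:48684549-48692060, protein coding, 6 annotated transcripts) starts 5434 bases after the end of Gimap9 (chr6:48676129-48679114) and ends 9521 bases before Gimap6 (chr6:48701582-48708225). Gimap8 is at chr6:48647234-48660875, Gimap7 at chr6:48718621-48724636, Gimap1 at chr6:48739054-48743795, Gimap5 at chr6:48746197-48754210 and Gimap3 at chr6:48764464-48770851.

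The coding sequence of every member held a P-loop, the stretch of the GTPase that grips the phosphates of the nucleotide. A search of the GENCODE M21 coding sequences for a glycine, 4 residues of any kind, a glycine, a lysine and then a serine or threonine found 10 P-loops, 3 in Gimap8 and 1 in each other member. They are printed to show how alike and how distinct the 8 paralogues are in a stretch that all of them hold, since likeness bears on whether their reads can be told apart. Each line gives 24 coding bases, 5′ to 3′, with the codons of the closing glycine, lysine and serine or threonine in capitals.
Gimap8 P-loop 1: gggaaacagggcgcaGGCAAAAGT
Gimap8 P-loop 2: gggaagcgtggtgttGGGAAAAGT
Gimap8 P-loop 3: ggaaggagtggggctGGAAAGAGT
Gimap9: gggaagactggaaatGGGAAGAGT
Gimap4: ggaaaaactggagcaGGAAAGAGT
Gimap6: gggaaaacaggaagcGGGAAAAGT
Gimap7: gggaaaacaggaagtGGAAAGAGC
Gimap1: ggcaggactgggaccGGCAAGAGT
Gimap5: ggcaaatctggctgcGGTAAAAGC
Gimap3: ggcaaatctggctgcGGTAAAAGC
The P-loop codons of Gimap3 and Gimap5 were identical, and every other pair differed at 4 to 12 of the 24 bases. Over the aligned coding bases Gimap3 and Gimap5 were 90.7% identical. The other pairs among the 7 members with a single P-loop ranged from 57.9% to 68.8%.

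Likeness over whole transcripts was measured in words of 50 bases. Of the 50-base words of one transcript per gene, 9.98% of those in Gimap5 and 9.06% of those in Gimap3 also occurred in another member, in each case in one another. The share was 0% for the other 6. Against all annotated transcripts, Gimap4, Gimap6, Gimap8 and Gimap9 shared 0% of their words with any other gene. Gimap5 shared 15.1%, Gimap1 12.8%, Gimap3 9.83% and Gimap7 2.62%, in part with Gm28053, a predicted transcript that reads through from Gimap7 towards Gimap5. The deposited counts of Gimap4, Gimap7, Gimap8 and Gimap9 were whole numbers within 0.001 in all 6 libraries, whereas 0% of those of Gimap1, 33.3% of those of Gimap3, 16.7% of those of Gimap5 and 50% of those of Gimap6 were whole. Gimap6 thus had fractional counts although the transcript searched shared none of these words. That transcript had 1594 bases and the longest annotated one has 3179, so part of Gimap6 was not searched. For Gimap1, Gimap5 and Gimap8 too the transcript searched was shorter than the longest. Gimap1 also overlaps the opposite-strand gene Gimap1os, whose reads cannot be separated from it unless strand was used in counting.

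The libraries held 14928623 to 27450400 counts, and the 8 genes took 0.0378% to 0.0413% of them in Cd48 KO and 0.0418% to 0.0488% in WT. Levels are in CPM, with library sizes scaled by the TMM method. Library WT1 stood apart from the others, with long transcripts under-represented, so log2 fold changes of the Gimap genes are given with and without it. The 10 ILC2 markers were all in the table and summed to 13348 to 14182 CPM in Cd48 KO and 11661 to 15737 CPM in WT. Their median log2 fold change was 0.05, with 3 of 10 below 0. With all libraries edgeR called 0 of them, against 0.03% of all genes, and 1 had an unadjusted p under 0.05, against 6.89%. Without WT1, edgeR called 2 of 10 higher, against 1.17% of all genes. They were the cytokine gene Il5 (log2 fold change 0.29, adjusted p = 0.0332, edgeR) and the IL-2 receptor gene Il2ra (log2 fold change 0.31, adjusted p = 0.0200, edgeR). On all libraries limma-voom called Il2ra, against 0.751% of all genes. The defining factor gene Gata3 averaged 934.3 ± 154 CPM in Cd48 KO and 1205 ± 186 CPM in WT (SD, n = 3 each). Its log2 fold change was -0.37 (SE 0.17) with all libraries and -0.23 without WT1. The targeted gene Cd48 was at 4.84 ± 0.657 CPM in Cd48 KO and 48.8 ± 8.51 CPM in WT (SD, n = 3 each).

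Gimap4, a GTPase that influences the death of activated T cells, was lower in every Cd48 KO library than in every WT library. Its counts were 223, 215 and 224 in KO1, KO2 and KO3, against 362, 338 and 680 in WT1, WT2 and WT3. On the CPM scale these were 13.6, 13.2 and 12.6 in Cd48 KO, against 25.3, 22.6 and 24.4 in WT. The groups did not overlap, and WT1 lay close to the other WT libraries for this gene. The means were 13.2 ± 0.489 CPM in Cd48 KO and 24.1 ± 1.39 CPM in WT (SD, n = 3 each), so that the KO mean was 54.6% of the WT mean. Its log2 fold change was -0.87 (SE 0.14) with all libraries and -0.84 (SE 0.14) without WT1. In bulk RNA, fewer cells with the transcript and less transcript per cell cannot be told apart.

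**Figure D1:**
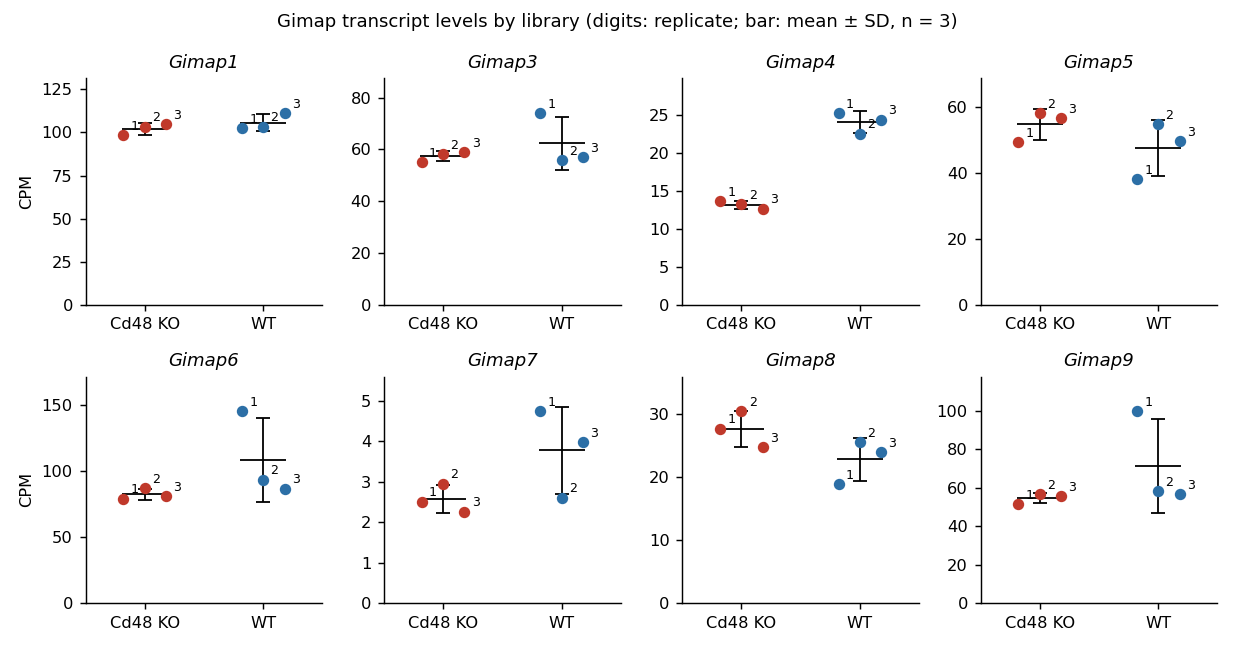
CPM of each Gimap gene in every library (points, numbered by replicate), with Cd48 KO on the left and WT on the right of each panel; horizontal bars are means and whiskers the SD (n = 3). Gimap4 is at 12.6 to 13.6 CPM in Cd48 KO and 22.6 to 25.3 CPM in WT, while WT1 is far above WT2 and WT3 for Gimap6 and Gimap9.

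The genes on either side of Gimap4 had KO levels nearer to WT2 and WT3 than to WT1. Gimap9, the nearest neighbour, stood at 51.5, 56.6 and 55.7 CPM in Cd48 KO, against 99.9, 58.1 and 56.6 CPM in WT. Its groups did not overlap, but KO2 and WT3 differed only in the second decimal of CPM, and WT1 was 1.74 times the mean of WT2 and WT3. Gimap9 had a log2 fold change of -0.39 (SE 0.24) with all libraries and -0.07 (SE 0.09) without WT1. Gimap6, which binds the autophagy protein GABARAPL2, was at 79.0, 87.2 and 81.1 CPM in Cd48 KO, against 145.5, 93.7 and 86.8 CPM in WT. Here the groups overlapped, with WT1 again the highest library. For Gimap6 the log2 fold change was -0.40 (SE 0.21) with all libraries and -0.13 (SE 0.08) without WT1.

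Gimap7, whose human protein is active as a GTPase when it pairs with itself, was the scarcest member. It had 40 to 48 counts in the Cd48 KO libraries. Its levels were 2.50, 2.95 and 2.26 CPM in Cd48 KO, against 4.75, 2.60 and 3.98 CPM in WT. The groups overlapped through KO2 and WT2, and the WT values spread widely. For Gimap7 the estimate was a log2 fold change of -0.56 (SE 0.30) with all libraries and -0.38 (SE 0.31) without WT1.

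Gimap1, which mature T and B cells need to persist, was the steadiest member. It was at 98.4, 103.3 and 104.7 CPM in Cd48 KO, against 102.5, 103.4 and 111.4 CPM in WT. The values overlapped, and the log2 fold change of Gimap1 was -0.05 (SE 0.10) with all libraries and -0.07 (SE 0.08) without WT1. Gimap5, whose loss causes a severe lack of T cells in rats and mice, was at 49.3, 58.2 and 56.5 CPM in Cd48 KO, against 38.1, 54.7 and 49.5 CPM in WT. WT1 was the lowest library, and the groups overlapped. Gimap5 had a log2 fold change of 0.20 (SE 0.17) with all libraries and 0.07 (SE 0.10) without WT1.

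Gimap3, the mouse paralogue of Gimap5, was at 55.1, 58.2 and 58.9 CPM in Cd48 KO, against 74.1, 55.8 and 56.9 CPM in WT. WT1 was high and the other WT libraries lay inside the KO range. Gimap3 had a log2 fold change of -0.12 (SE 0.15) with all libraries and 0.03 (SE 0.09) without WT1. Gimap8, the member with 3 GTPase domains, was at 27.6, 30.4 and 24.7 CPM in Cd48 KO, against 18.9, 25.5 and 23.9 CPM in WT. The groups overlapped, and WT1 was the lowest library. For Gimap8 the log2 fold change was 0.28 (SE 0.17) with all libraries and 0.16 (SE 0.13) without WT1.

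**Figure D2:**
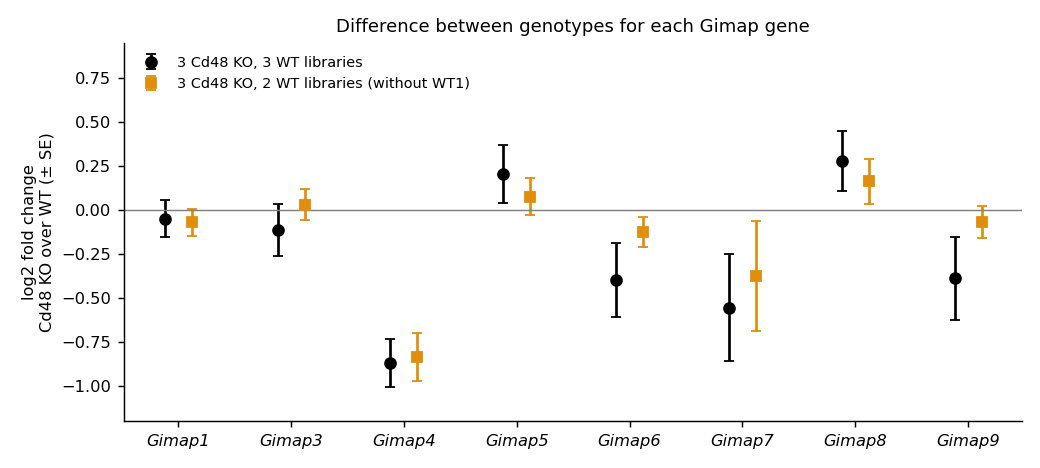
Log2 fold change of each Gimap gene, Cd48 KO over WT, with its standard error, from edgeR with all 6 libraries (black circles) and without WT1 (orange squares). Gimap4 lies at -0.87 and -0.84 in the 2 fits, while Gimap6 and Gimap9 move from about -0.4 to -0.13 and -0.07 when WT1 is left out.

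All 8 members passed the filter on low counts. With all libraries 6 of the 8 had a log2 fold change below 0, against 50.5% of all 13317 genes tested, and the median was -0.25, against -0.004 over all genes. Without WT1 the members' median was -0.07 and 5 were below 0, against 49.8% of 13643 genes. All KO libraries lay below all WT libraries for Gimap4 and Gimap9, that is 2 of 8, as they did for 9.11% of all genes. They lay above for 0 of 8 members and for 10.2% of all genes, which makes 19.3% in either direction. A gene was called where edgeR's quasi-likelihood p, adjusted over all genes by the Benjamini-Hochberg (BH) method, was under 0.05. With all libraries 0 of 8 members were called in either direction, as were 0.015% of all genes as lower and 0.015% as higher (0.03% together). Gimap4 was the 1 member with an unadjusted p under 0.05, which 918 of all genes (6.89%) also had. Without WT1, Gimap4 was the 1 member called lower and 0 were called higher, against 0.652% and 1.17% of all genes (1.82% together). DESeq2 on all 6 libraries also called Gimap4 alone, as lower, against 0.363% of all genes called lower and 0.363% called higher (0.726% together). In limma-voom with sample quality weights Gimap4 was again the 1 member called, as lower, against 0.33% of all genes called lower and 0.421% called higher (0.751% together). Because the value of Gimap4 in this contrast chose the family, these counts are descriptions.

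Within the family, Gimap4 took a smaller part of the reads in Cd48 KO. It had 3.61%, 3.22% and 3.19% of the summed counts of the 8 genes in Cd48 KO, against 4.97%, 5.42% and 5.90% in WT. The ratio of Gimap4 to Gimap1 counts was 0.138, 0.128 and 0.121 in Cd48 KO, against 0.247, 0.218 and 0.219 in WT. The ratio of Gimap4 to Gimap8 counts was 0.493, 0.435 and 0.513 in Cd48 KO, against 1.34, 0.885 and 1.02 in WT. Against 5 of the other 7 members the ratio was lower in every KO library than in every WT library. The exceptions were Gimap7, with its few counts, and Gimap9, where WT1 had a ratio of 0.253, inside the KO range of 0.227 to 0.265. All these shares and ratios use the Gimap4 counts whose difference chose the family. They restate that difference and are not separate observations. The summed level of the 7 genes other than Gimap4 was 363.4, 396.9 and 383.8 CPM in Cd48 KO, against 483.7, 393.8 and 389.1 CPM in WT, and KO2 lay above WT2 and WT3.

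Compared per length, the members spanned a range of more than an order of magnitude. The level per kilobase of the longest transcript, averaged over the 6 libraries, was 64.4 CPM per kb for Gimap1 and 45.6 for Gimap9. It was 30.0 for Gimap6, 27.9 for Gimap3 and 21.9 for Gimap5. The lowest were Gimap4 with 10.3, Gimap8 with 7.96 and Gimap7 with 2.50 CPM per kb. Neighbours in this order were compared within libraries by an exact two-sided sign-flip permutation test over 6 libraries, with BH adjustment over 7 pairs. This test cannot give an unadjusted p below 0.0312. The order was taken from the means of these same libraries, so the test only describes how steady it was. Pairs with Gimap4 also use the values that chose the family. Gimap9 over Gimap6, Gimap3 over Gimap5, Gimap5 over Gimap4 and Gimap8 over Gimap7 held in 6 of 6 libraries, with adjusted p = 0.0547 each in the exact test. Gimap1 exceeded Gimap9 in 5 of 6 libraries, all but WT1 (exact adjusted p = 0.0875). Gimap6 and Gimap3 were in this order in 4 of 6 libraries (exact adjusted p = 0.375). Gimap4 and Gimap8 changed places between genotypes. Gimap4 was at 7.29 ± 0.271 CPM per kb in Cd48 KO and 13.3 ± 0.768 in WT, and Gimap8 at 8.72 ± 0.903 in Cd48 KO and 7.20 ± 1.10 in WT (SD, n = 3 each). Gimap8 exceeded Gimap4 in the 3 KO libraries and Gimap4 exceeded Gimap8 in the 3 WT libraries. The exact test of this pair (adjusted p = 0.328) concerns the mean ratio over all 6 libraries, in which opposite signs cancel. It does not test the change of places, which rests on the Gimap4 values that chose the family. Per kilobase of coding sequence, Gimap6 moved above Gimap9 and the rest of the order was the same.

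**Figure D3:**
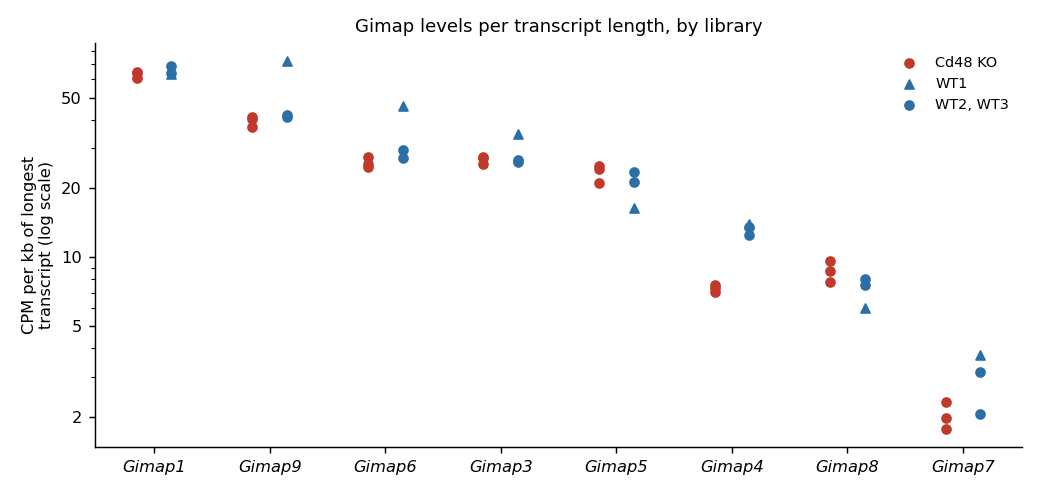
Level of each Gimap gene per kilobase of its longest transcript (log axis) in every library, with Cd48 KO in red left of WT in blue and WT1 as a triangle. Genes run from the highest mean (Gimap1, 64.4 CPM per kb) to the lowest (Gimap7, 2.50), and Gimap4 and Gimap8 change places between the genotypes.

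Library WT1 was the highest WT library for some members and the lowest for others. The coefficient of variation among KO libraries was 3.26% to 13.7% over the 8 genes. Among WT libraries it was 34.3% for Gimap9, 29.5% for Gimap6 and 28.8% for Gimap7, but 4.61% for Gimap1 and 5.76% for Gimap4. The other WT libraries differed for Gimap7 too, where the WT2 level was 0.653 times that of WT3. On the log2 CPM scale WT1 exceeded the mean of WT2 and WT3 by 0.80 for Gimap9, 0.69 for Gimap6, 0.54 for Gimap7, 0.39 for Gimap3 and 0.11 for Gimap4. The same difference was -0.07 for Gimap1, -0.39 for Gimap8 and -0.45 for Gimap5. Across all tested genes the median of this difference was 0.35 where the longest transcript had 1000 to 1500 bases, and -0.91 where it had 8000 or more. Gimap6 and Gimap8, whose longest transcripts are 3179 and 3160 bases, lay on opposite sides of the median of -0.07 for their bin of 3000 to 4000 bases. With a trend on length removed from every library, the log2 fold change between genotypes was -0.41 for Gimap6, -0.24 for Gimap9 and -0.78 for Gimap4.

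**Figure D4:**
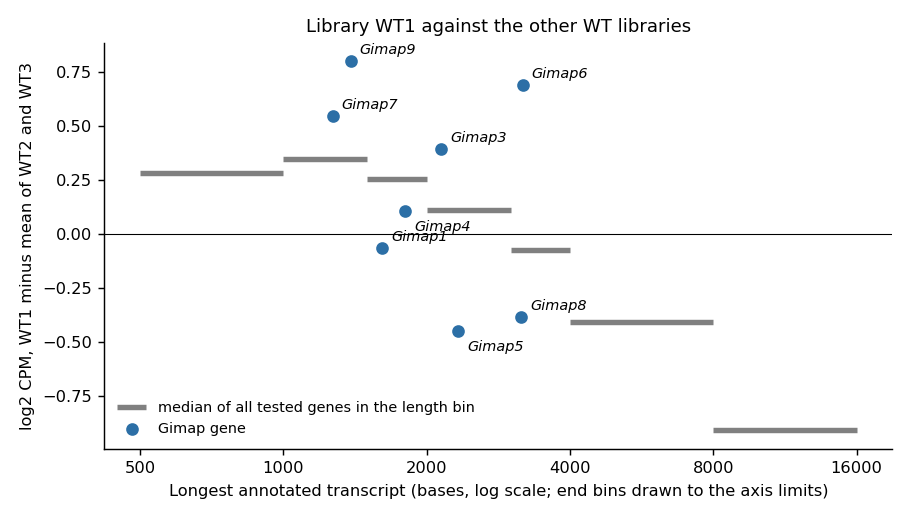
Difference in log2 CPM between WT1 and the mean of WT2 and WT3 for each Gimap gene (blue points) against the length of its longest transcript (log axis), with the median of all tested genes in each length bin (grey lines). Gimap9 (0.80) and Gimap6 (0.69) lie above the grey lines and Gimap5 (-0.45) and Gimap8 (-0.39) below them, while Gimap4 (0.11) is close to 0.

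The genes that flank the cluster were not called with all libraries. Of 47 annotated genes within 500 kb on either side, 19 were in the table and 14 were tested. Of these 14, 0 passed edgeR's test with BH adjustment, against 0.03% of all genes. In the same test 0 had an unadjusted p under 0.05, against 6.89%. DESeq2 and limma-voom called 0 of them, against 0.726% and 0.751% of all genes. These counts do not set the flanking genes apart from all genes. Their log2 fold changes ran from -0.59 to 0.56 with a median of -0.18. Of the 4 most abundant, the membrane protein gene Tmem176b had a log2 fold change of -0.008 (SE 0.13) and the splicing factor gene Tra2a 0.08 (SE 0.13). Malsu1, which encodes a mitochondrial ribosome assembly factor, had -0.44 (SE 0.24), and the glycoprotein gene Gpnmb had -0.53 (SE 0.80). Leaving out WT1 gave -0.04 for Tmem176b, 0.14 for Tra2a, -0.13 for Malsu1 and -1.06 for Gpnmb. Without WT1, Krba1, which lies on the Gimap8 side of the cluster, was the 1 flanking gene called (log2 fold change -0.82, adjusted p = 0.0417, edgeR). That is 1 of 14, against 1.82% of all genes. Krba1 was at 6.47, 7.62 and 6.66 CPM in Cd48 KO, against 6.77, 12.6 and 11.8 CPM in WT.

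**Figure D5:**
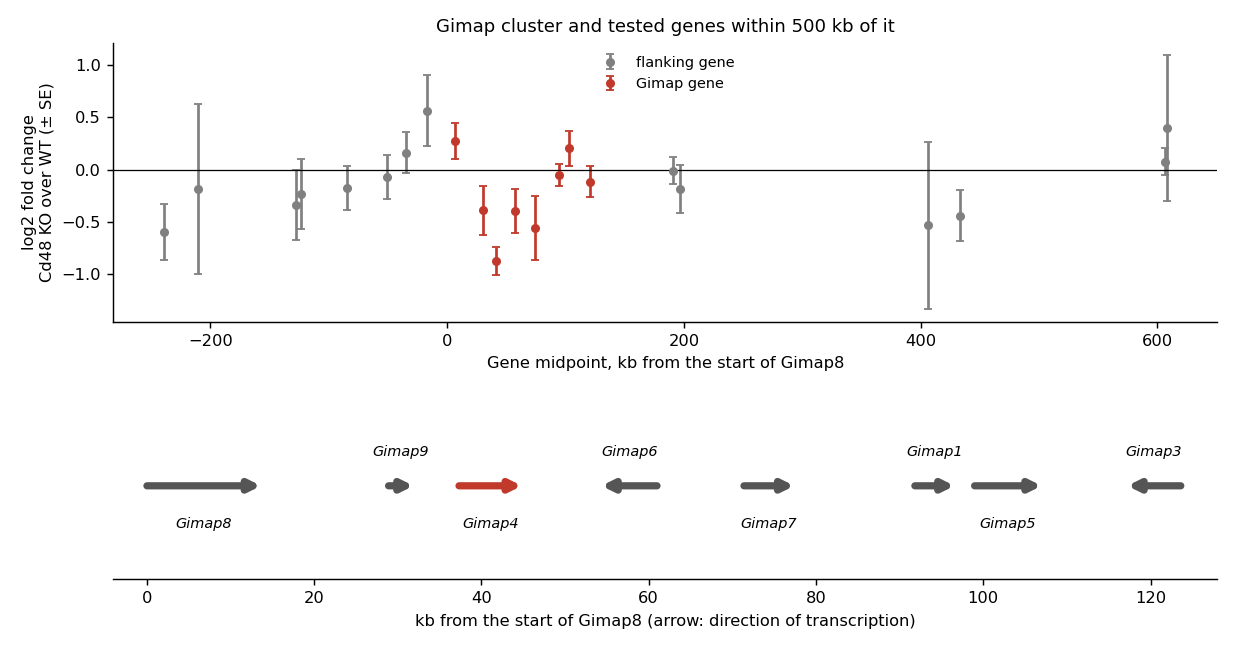
Upper panel, log2 fold change (Cd48 KO over WT, ± SE, all 6 libraries) against gene position for the 8 Gimap genes (red) and the 14 tested flanking genes (grey); lower panel, position and direction of the Gimap genes, with Gimap4 in red. Gimap4 (-0.87) lies between Gimap9 (-0.39) and Gimap6 (-0.40), and the flanking genes lie between -0.59 and 0.56.

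Since no other layer was measured here, the sequence before Gimap4 is shown only to describe the gene whose level differed. The window from 250 bases before to 50 bases after its RefSeq start (chr6:48684328-48684627, plus strand, GRCm38.p6) reads as follows, with matches in capitals.
Gimap4 promoter: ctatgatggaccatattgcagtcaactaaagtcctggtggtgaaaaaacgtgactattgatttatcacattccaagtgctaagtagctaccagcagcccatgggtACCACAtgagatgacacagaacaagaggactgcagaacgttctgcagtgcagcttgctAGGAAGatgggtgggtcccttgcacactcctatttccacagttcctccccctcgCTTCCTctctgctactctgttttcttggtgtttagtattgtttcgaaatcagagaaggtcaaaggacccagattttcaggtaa
Both strands were searched for short forms of motifs of 4 kinds. The ETS form AGGAAG occurred 2 times in the Gimap4 window, in a window of 7 of the 8 members and in 35.4% of 32851 promoter windows. The RUNX form TGTGGT occurred 1 time in the Gimap4 window without overlapping the others, in 3 members (Gimap1, Gimap4 and Gimap7) and in 16.8% of all windows. The GATA form AGATAA occurred in 0 of the 8 and in 11.2% of all windows. The TATA box form TATAAA occurred in Gimap6 alone and in 13.6% of all windows. These are matches of letters and not binding sites.

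Genes for partners of GIMAP proteins, or for signalling linked to them, were not called, and few of all genes were. The 10 such genes cover the BCL-2 family, GSK3B, mTOR and the GABARAP autophagy proteins. In either direction edgeR called 0 with all libraries and 0 without WT1, against 0.03% and 1.82% of all genes. None had an unadjusted p under 0.05 in edgeR with all libraries, against 6.89% of all genes. DESeq2 and limma-voom called 0, against 0.726% and 0.751% of all genes. Their median log2 fold change was -0.15 with all libraries and -0.002 without WT1, against -0.004 and 0.00048 over all genes. Gabarapl2, whose protein binds GIMAP6, was at 151.3, 164.5 and 156.4 CPM in Cd48 KO, against 222.8, 166.5 and 145.9 CPM in WT. Gabarap, of the same autophagy family, was at 224.0, 224.2 and 244.2 CPM in Cd48 KO, against 364.2, 247.8 and 269.7 CPM in WT, without overlap. Its log2 fold change was -0.35 (SE 0.16) with all libraries and -0.16 without WT1. The survival gene Bcl2l1 had a log2 fold change of -0.11 (SE 0.14) and the death effector gene Bax -0.35 (SE 0.24), or 0.03 and -0.02 without WT1.

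Of 15 measured genes of lymphocyte quiescence and homing, 0 were called with all libraries by edgeR, DESeq2 or limma-voom. These tools called 0.03%, 0.726% and 0.751% of all genes. An unadjusted p under 0.05 in edgeR was found for 5, all 5 lower, against 6.89% of all genes in either direction. Their median log2 fold change was -0.27 with all libraries and -0.11 without WT1. Btg1, an antiproliferative gene of resting lymphocytes, was at 357.7, 329.0 and 303.6 CPM in Cd48 KO, against 626.2, 435.2 and 427.2 CPM in WT. It was the 1 member of the list called without WT1 (log2 fold change -0.38, adjusted p = 0.0109, edgeR), against 0.652% of all genes called lower. Slfn2, which keeps T cells quiescent, had a log2 fold change of -0.37 (SE 0.12), or -0.30 without WT1, and its groups did not overlap. Il7r, the IL-7 receptor gene, had a log2 fold change of 0.24 (SE 0.14), or 0.15 without WT1.

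Transcripts of other cell types were checked because GIMAPs are abundant in T cells and endothelium. The summed level of 13 measured T cell markers was 331.9 to 359.5 CPM in Cd48 KO and 409.1 to 582.6 CPM in WT. Most of this sum came from Zap70, Trbc2 and Lat. They averaged 133.4, 95.4 and 51.3 CPM in Cd48 KO and 145.4, 132.2 and 89.6 CPM in WT. Of the 9 markers tested, 8 had a log2 fold change below 0 (median -0.49), against 50.5% of all genes. With all libraries edgeR called 0 of the 9, of which 4 had an unadjusted p under 0.05, against 6.89% of all genes. DESeq2 and limma-voom each called 1, Cd3g, against 0.726% and 0.751% of all genes. Cd3g was at 13.6, 12.9 and 13.9 CPM in Cd48 KO, against 41.0, 28.2 and 22.9 CPM in WT. Without WT1, edgeR called Cd3g (log2 fold change -0.92, adjusted p = 0.0069) and the T cell receptor β constant gene Trbc2 (log2 fold change -0.39, adjusted p = 0.0257). These were 2 of 9 tested, against 0.652% of all genes called lower. Trac, which encodes the constant part of the T cell receptor α chain, was at no more than 0.226 CPM in Cd48 KO and 0.349 CPM in WT. Cd3d stayed at or under 0.307 CPM in Cd48 KO and 0.574 CPM in WT. Cd4, Cd8a, Cd8b1 and Cd5 were looked for and were absent from the count table, whose lowest gene total over samples was 10. The 7 epithelial markers summed to 10.0 to 23.8 CPM in Cd48 KO and 31.4 to 72.8 CPM in WT. These sums were uneven between libraries. Scgb1a1 was at 0, 0.184 and 12.9 CPM in Cd48 KO, against 1.82, 19.0 and 47.2 CPM in WT. Sftpc was at 0.489, 0.246 and 0 CPM in Cd48 KO, against 0, 23.3 and 2.05 CPM in WT. Krt8 was at 0 in the 3 KO libraries and at 5.17, 5.01 and 0.287 CPM in WT. With all libraries edgeR called 0 of the 4 epithelial markers tested, against 0.03% of all genes. An unadjusted p under 0.05 was found for 3 of the 4, all lower, against 6.89% of all genes. DESeq2 called Epcam and Krt8, against 0.726% of all genes, and limma-voom called Epcam, against 0.751%. Krt8 did not pass the filter of edgeR and is not among the 4. Without WT1, edgeR called Epcam lower (log2 fold change -0.83, adjusted p = 0.0347). That is 1 of 5 tested, against 0.652% of all genes called lower. The 5 of 8 B cell markers in the table summed to 25.3 to 31.0 CPM in Cd48 KO and 26.7 to 48.5 CPM in WT. The 6 of 7 macrophage and monocyte markers there summed to 6.38 to 14.6 CPM in Cd48 KO and 9.01 to 29.0 CPM in WT. The 3 of 9 endothelial markers there summed to 42.2 to 44.6 CPM in Cd48 KO and 30.2 to 42.9 CPM in WT, nearly all of it Pecam1. Of 7 NK cell markers 2 were in the table, both near 0. The part of these transcripts in the Gimap4 difference was not tested.

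The genes whose pattern was most like that of Gimap4 were picked by Pearson's r of log2 CPM over the 6 libraries, among 8669 genes that averaged 10 CPM or more. They were the nonclassical class I gene H2-T22 (r = 0.997), Cd48 (0.991), the DNA sensor gene Ifi209 (0.990), the protease inhibitor gene Serpinb1a (0.989) and the zinc finger gene Zbtb22 (0.989). The ranking describes the same Gimap4 values that led to the choice of the family. Cd48 (4.84 CPM in Cd48 KO and 48.8 CPM in WT) and Ifi209 (1.17 CPM in Cd48 KO and 20.4 CPM in WT) reached that average only through their WT levels. For Gimap4 the 6 libraries fall into a KO and a WT cluster, and within a library all genes share its depth and scaling. The 5 genes' log2 fold changes were -0.49, -3.33, -4.12, -0.66 and -0.22. The summed level of the 8 Gimap genes was instead most like Atp5e (r = 0.998), Uqcrh (0.998), Tbcb (0.997), Abhd11 (0.996) and Timm22 (0.996). WT1 is the library that stands apart in that sum.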

How the data were processed

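RNA-seq of 3 Cd48 KO and 3 WT samples was used, grouped by the sample titles, with cDNA made from 10 pg of RNA each, per the labels' protocols. STAR 2.7.8, Partek 10.0, DESeq2 and the build mm10 appear in the submitters' processing notes with no role. Which program counted genes, with which annotation and strand setting, was not given in the sources used here. Unnormalized estimated counts were deposited for each gene (inferred from its numbers: 60.2% of those above 0 were whole within 0.001). They were rounded before testing.

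The whole table was fitted in R 4.3.3 with edgeR 4.0.16 (filterByExpr, TMM, robust quasi-likelihood, genotype as the only term, BH over all genes, calls under 0.05). The SE of a log2 fold change was its size divided by the root of the F statistic. Alternatives used DESeq2 1.42.0, limma 3.58.1 (voom), other filters and scaling, a length trend, a replicate block and each library left out. The tests were checked on simulated data. Chi-square values per gene between replicates of a genotype were 108 and 149 for WT1 against WT2 and WT3. For the other pairs they were 5.52 to 9.98. Replicates thus differed by more than counting noise, which cannot show that they were separate mice. Each sample was counted once. Of the gene symbols, 97.6% matched GENCODE M21. The promoter is from RefSeq. The members and lists were chosen with earlier results of these data known. Named genes are the members, the 4 most abundant or any called genes within 500 kb, the 5 most alike per target and up to 4 per list (called, then most abundant); Gata3, Trac, Cd3d, Krt8 and Pecam1 were added as defining markers after their values were seen.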

Additional observations from a re-analysis of the deposited data

How the results depend on the processing

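The log2 fold change of Gimap4 kept its direction under all 13 alternatives. It was -0.87 with DESeq2 and -0.84 with limma-voom with sample quality weights, both of which called it, and from -0.91 to -0.84 with 1 library left out, where the fit without WT1 called it. Removing the trend on transcript length gave -0.78. The groups did not overlap for Gimap4 and its difference chose the family, so leaving out 1 library could hardly turn the sign. The kept direction and the calls restate that choice and are not separate support. The number of members called lower was 0 with all libraries in edgeR, 1 with DESeq2, 1 with limma-voom, and 0 to 1 with 1 library left out. No member was called higher in any of these fits. Gimap1 turned to 0.047 with the length trend removed. Gimap3 turned to 0.024 with limma-voom and to 0.030 without WT1, and ranged from -0.19 to 0.030 with 1 library left out. The other 5 members kept their sign throughout. The replicate numbers did not pair the samples (correlations of deviations of -0.05, -0.04 and -0.009), and the replicate block gave Gimap4 a log2 fold change of -0.87 with 0 members called. The order by level per length kept 6 of 7 neighbouring pairs with coding length, 7 with library totals and 7 with any 1 library left out. Gimap7 could not be fitted at a mean of at least 10 CPM. With 39 to 111 counts, Gimap7 is the member that depth limits most. Over all genes, edgeR called 4 with all libraries, 0 with the replicate block, 0 without KO1, 0 without KO3 and 248 without WT1, while DESeq2 called 102 and limma-voom 100.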

Other observations

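The 4 other transcripts of the table that lie within the span of the cluster were tested. Gimap1os, an opposite-strand transcript that overlaps Gimap1, was at 4.09, 1.60 and 3.05 CPM in Cd48 KO, against 2.65, 3.34 and 3.09 CPM in WT, and its groups overlapped. Gm28053, annotated from the start of Gimap7 into Gimap5, was at 1.04, 1.11 and 1.07 CPM in Cd48 KO, against 1.12, 0.534 and 0.790 CPM in WT. The lincRNAs Gm44226 and 4833403J16Rik, between Gimap5 and Gimap3, averaged 2.71 ± 0.561 and 1.58 ± 0.497 CPM in Cd48 KO, against 1.84 ± 1.24 and 1.54 ± 0.619 CPM in WT (SD, n = 3 each). None of these 4 was called by edgeR with all libraries, against 0.03% of all genes, and none had an unadjusted p under 0.05, against 6.89%.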
